A study of Mus musculus with 10 samples.

Results

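The genes described here are the nuclear genes of the mitochondrial respiratory chain in mouse kidney. They were chosen by symbol from the joined count matrix: every row whose symbol starts with Nduf, Uqcr, Cox4i, Cox5, Cox6, Cox7, Cox8 or Atp5, together with Sdha to Sdhd, Cyc1 and Cycs. Of the 24062 genes in the matrix 94 matched, and 91 had a mean of at least 1 CPM over the 8 C57BL/6N libraries and were kept. CPM are reads per 1000000 counted, before scaling for this threshold and the means in this paragraph, and after scaling elsewhere. The kept genes were 36 subunits of complex I, 8 complex I assembly factors, 4 genes of complex II, 9 of complex III, cytochrome c (Cycs), 17 of complex IV and 16 of complex V. Atp5sl matched by its prefix but encodes a complex I assembly factor now named Dmac2, and Ndufa4 and Ndufa4l2 are grouped with complex IV. The 3 genes left out were Cox4i2 (mean 0.547 CPM), Cox7b2 and Cox8c, and the kept genes nearest to the threshold were Cox6a2 (1.30 CPM) and Cox8b (1.54 CPM).

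The study sequenced polyA RNA from whole kidneys of adult male mice. It compared 4 C57BL/6N mice lacking Ehhadh (KO) with 4 wild-type C57BL/6N mice (WT), and added 1 wild-type DBA_2J mouse and 1 wild-type 129S2_SvPasCrl mouse. Ehhadh encodes the peroxisomal bifunctional enzyme of fatty acid oxidation, and the labels say neither how the allele was made nor in which cells it acts. The labels do not say whether KO and WT mice were littermates, so a litter difference cannot be told apart from genotype. The p-values set the difference between KO and WT against the spread between libraries within each genotype. Ehhadh itself was at 285, 332, 248 and 176 CPM in the KO libraries and at 3439, 2232, 2100 and 2197 CPM in the WT libraries, a 9.58-fold difference. It was also lower in DBA_2J (795 CPM) and 129S2_SvPasCrl (787 CPM) than in every WT library, without a replicate for either strain. Gene counts summed to 41488104 to 52302788 reads per KO library, 19790430 to 35988299 per WT library, 57250374 in DBA_2J and 51192407 in 129S2_SvPasCrl, so every KO library was deeper than every WT library. CPM values of KO and WT were scaled over the 8 C57BL/6N libraries, and those set beside the other strains over all 10. WT values of Ehhadh, other genes outside the list, marker sums and levels per kb kept the scaling over the 8.

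The respiratory chain sits in the inner mitochondrial membrane. Complex I (NADH dehydrogenase) and complex II (succinate dehydrogenase) feed electrons to ubiquinone, complex III passes them to cytochrome c, complex IV hands them to oxygen, and complex V (ATP synthase) uses the resulting proton gradient to make ATP. The subunits come from nuclear and mitochondrial genes together, and in the kidney the proximal tubule and the thick ascending limb are rich in mitochondria. NRF1, GABPA, YY1 and the estrogen-related receptors are transcription factors known for binding near the start sites of many of these nuclear genes.

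Upstream sequences of 5 genes are printed because they include the members with the largest fall in complex I and complex V (Ndufa5, Ndufa11 and Atp5k), the only member that rose (Ndufaf1), and a member that did not pass the test (Cycs). Each is the 250 bases before a RefSeq start site on build GRCm38.p6, 5′ to 3′ on the gene's own strand, and capitals mark the letters CGCANGCG, the core of the NRF1 motif, or the same letters on the other strand (CGCNTGCG).
Ndufa5: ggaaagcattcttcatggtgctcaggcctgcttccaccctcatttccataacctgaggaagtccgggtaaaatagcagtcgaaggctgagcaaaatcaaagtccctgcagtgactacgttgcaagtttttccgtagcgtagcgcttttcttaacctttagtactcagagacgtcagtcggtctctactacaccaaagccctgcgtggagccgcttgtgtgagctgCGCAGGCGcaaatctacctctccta
Ndufa11: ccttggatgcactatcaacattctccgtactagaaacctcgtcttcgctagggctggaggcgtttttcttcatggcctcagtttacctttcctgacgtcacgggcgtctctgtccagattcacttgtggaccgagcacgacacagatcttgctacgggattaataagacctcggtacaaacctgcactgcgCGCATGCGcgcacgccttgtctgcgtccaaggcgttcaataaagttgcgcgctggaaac
Atp5k: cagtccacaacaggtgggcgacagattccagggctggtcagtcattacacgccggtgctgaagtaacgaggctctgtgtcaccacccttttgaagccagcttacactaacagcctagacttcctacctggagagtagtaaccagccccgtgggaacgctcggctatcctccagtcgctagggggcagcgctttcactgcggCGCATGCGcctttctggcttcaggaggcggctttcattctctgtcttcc
Cycs: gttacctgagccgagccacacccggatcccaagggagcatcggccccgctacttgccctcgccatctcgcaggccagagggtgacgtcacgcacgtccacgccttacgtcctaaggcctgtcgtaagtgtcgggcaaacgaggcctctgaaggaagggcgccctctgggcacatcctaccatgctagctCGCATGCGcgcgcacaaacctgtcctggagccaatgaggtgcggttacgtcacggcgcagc
Ndufaf1: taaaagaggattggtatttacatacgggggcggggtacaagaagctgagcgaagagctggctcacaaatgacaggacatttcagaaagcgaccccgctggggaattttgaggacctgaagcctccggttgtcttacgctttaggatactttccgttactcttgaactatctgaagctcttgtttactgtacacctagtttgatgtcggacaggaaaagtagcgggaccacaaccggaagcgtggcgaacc

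The Ndufa5 sequence lies at chr6:24527691-24527940 on the minus strand, Ndufa11 at chr17:56717512-56717761 on the plus strand and Atp5k at chr5:108434400-108434649 on the minus strand. Cycs lies at chr6:50566570-50566819 and Ndufaf1 at chr2:119662835-119663084, both on the minus strand. Of the 91 members 76 matched a RefSeq promoter, 3 of them by a newer or older symbol. In windows from 250 bases before to 50 after the start, CGCANGCG on either strand stood in 30 of the 76 members (39.5%). It stood in 17.2% of the 12079 matched genes tested and in 9.22% of all 27025 genes with a RefSeq promoter. The same letters stood in 8 of the 12 matched members that fell in KO. AAGATGGC (YY1; other strand GCCATCTT) stood in 14.5% of members and 4.69% of tested genes. CCGGAAGT (GABPA; other strand ACTTCCGG) stood in 6.58% and 8.02%. TCAAGGTCA (the estrogen-related receptor half-site; other strand TGACCTTGA) stood in 2.63% and 0.356%. Overlap between motifs was allowed. A letter match is a description and not a measured binding site.

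Across the 8 C57BL/6N libraries 13 of the 91 members fell in KO and 1 rose (edgeR quasi-likelihood test, Benjamini-Hochberg adjusted p under 0.05 over the 15547 genes tested). Among all genes tested 4.68% were called lower and 6.32% higher. The falls were small, from 0.19 to 0.40 on the log2 scale. They comprised 9 of 36 complex I subunits, 1 of 8 complex I assembly factors, 2 of 9 genes of complex III and 1 of 16 genes of complex V. No gene of complex II, cytochrome c or complex IV was called. The estimate was negative in 80 members and positive in 11, and the median log2 fold change was -0.12 over the members and -0.0057 over all genes. In 37 members every KO library lay below every WT library (7.95% of all genes), and in 2 every KO library lay above (9.77% of all genes). The 13 lower calls are among the 37. The members share libraries and scaling, so their counts are a description of the list and not a test of it.

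**Figure D1:**
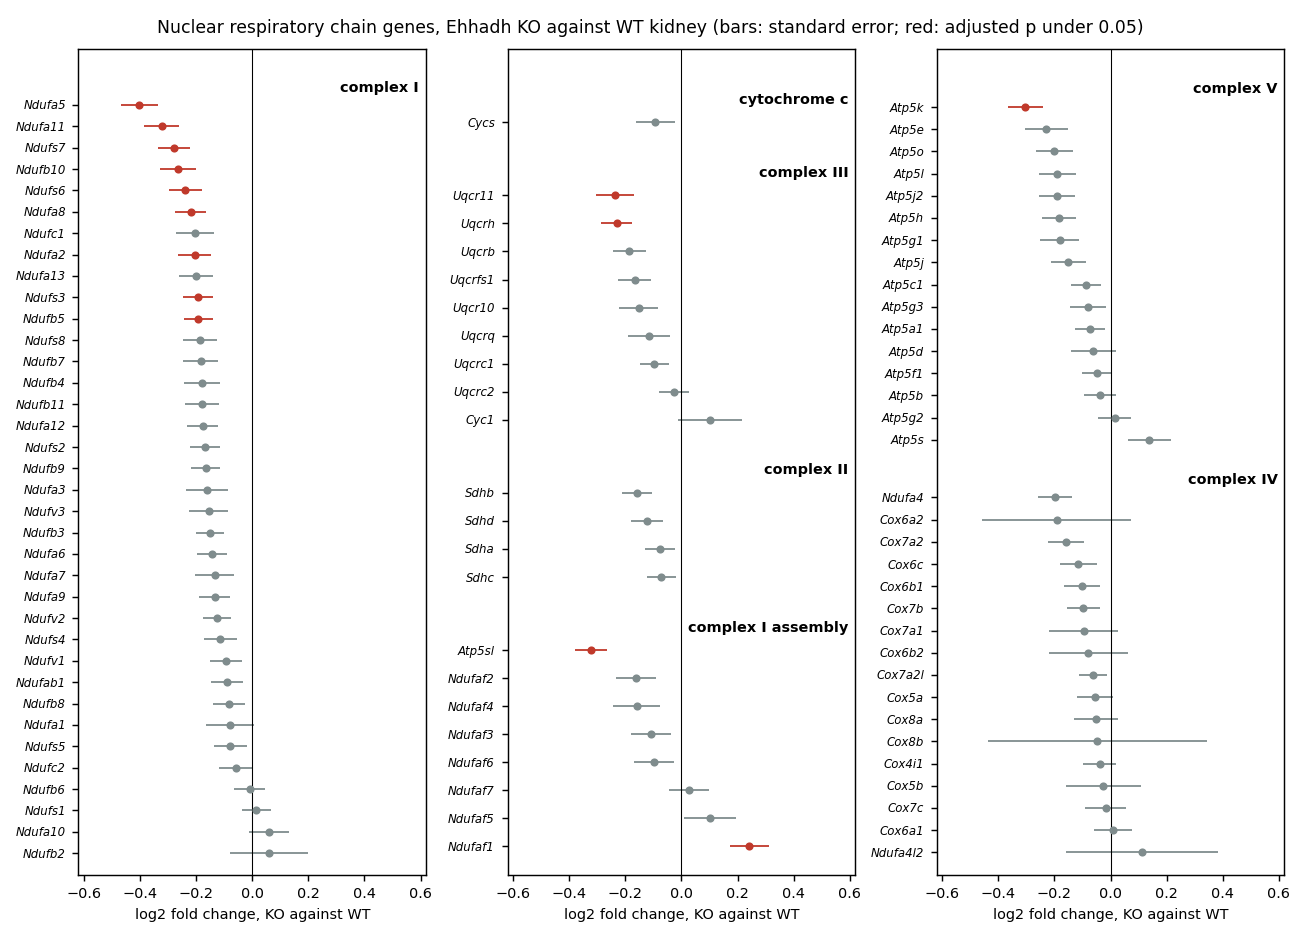
Log2 fold change of KO against WT for each of the 91 members (horizontal axis, points with bars of 1 standard error from the edgeR fit, 4 libraries a group), arranged by complex and ordered by value. Red marks the 14 members with an adjusted p under 0.05: 13 lie left of 0 and Ndufaf1 lies right of 0.

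In each library the median member was set against the WT mean of that member. These medians were -0.08, -0.12, -0.13 and -0.21 on the log2 scale in KO 1 to KO 4 and -0.03, -0.02, 0.01 and 0.04 in WT 1 to WT 4. Every KO library was thus below every WT library in the median member, and KO 4 was the lowest. KO 4 held the lowest of the 8 values in 54 of the 91 members. The share of all genes in which KO 4 was the lowest was not computed. Over all genes tested the library medians stayed between -0.003 and 0.008 in the 8 libraries.

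**Figure D2:**
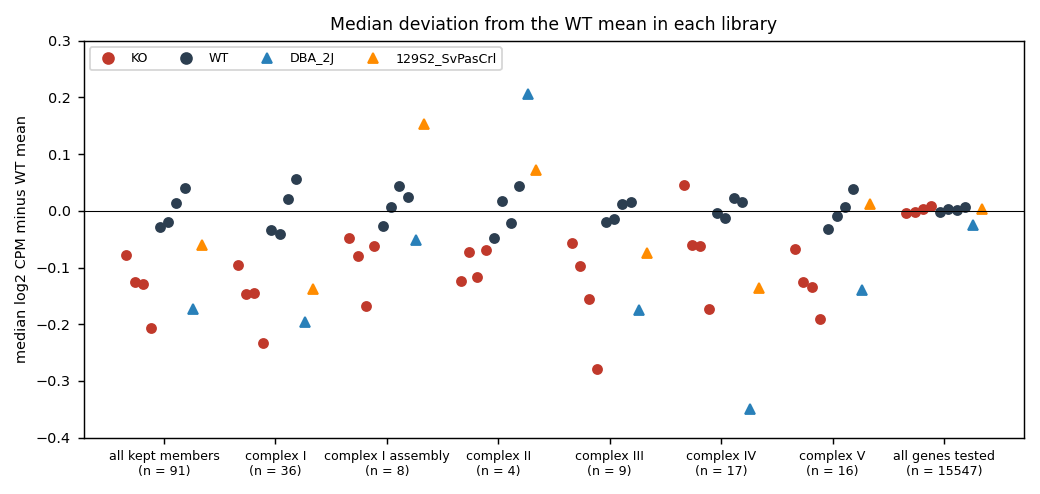
Median over members of log2 CPM minus the mean of the 4 WT libraries (vertical axis), by complex and over all genes tested, with 1 point per library. KO libraries lie below the WT libraries for complex I, its assembly factors and complexes II, III and V. KO 1 lies above all WT libraries for complex IV, and both strain libraries lie above all WT libraries for complex II.

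Complex I takes electrons from NADH in its peripheral arm and pumps protons through its membrane arm. Of its 36 nuclear subunits 9 fell, 27 did not pass the test and none rose, with a median log2 fold change of -0.16. The falls were in 2 of 7 core subunits and 7 of 29 accessory subunits. By position they were in 5 of 16 peripheral arm subunits and 4 of 19 membrane arm subunits, with medians of -0.16 and -0.17.

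Ndufa5, an accessory subunit of the peripheral arm, was at 84.5, 82.0, 82.1 and 76.8 CPM in KO and at 101, 99.5, 117 and 113 CPM in WT. The groups did not overlap, and KO 4 was the lowest library. Its level fell by 0.40 on the log2 scale (SE 0.07, edgeR adjusted p = 0.0032), the largest fall of the list. Ndufa11, an accessory subunit of the membrane arm, was at 83.4, 73.6, 78.8 and 73.9 CPM in KO and at 92.7, 92.8, 98.5 and 104 CPM in WT. It fell by 0.32 (SE 0.06, edgeR adjusted p = 0.0080), again with no overlap. Ndufs7, the core subunit that holds the last iron-sulfur cluster before ubiquinone, was at 205, 193, 204 and 196 CPM in KO and at 230, 231, 256 and 253 CPM in WT. The 2 highest WT values were those of WT 3 and WT 4, as for Ndufa5 and Ndufa11. Ndufs7 fell by 0.28 (SE 0.06, edgeR adjusted p = 0.0113). These 3 calls held when each of the 8 libraries was left out in turn.

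Ndufb10, of the membrane arm, was at 192, 185, 184 and 194 CPM in KO and at 210, 215, 233 and 250 CPM in WT. It fell by 0.26 (edgeR adjusted p = 0.0237). The call was lost without KO 1, KO 2, KO 3, WT 3 or WT 4, with adjusted p from 0.0521 to 0.0682. Ndufs6, a zinc-binding accessory subunit of the peripheral arm, was at 72.8 to 79.5 CPM in KO against 84.3 to 96.0 CPM in WT, and fell by 0.24 (edgeR adjusted p = 0.0254). Its call was lost without KO 2, WT 3 or WT 4 (adjusted p from 0.0576 to 0.0842). Ndufa8, an accessory subunit facing the intermembrane space, was at 118 to 127 CPM in KO against 135 to 149 CPM in WT, and fell by 0.22 (edgeR adjusted p = 0.0254). Without KO 2, KO 3, WT 3 or WT 4 it was not called (adjusted p from 0.0564 to 0.0830). All 3 had groups that did not overlap.

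The other 3 falls in complex I were nearer to the threshold. Ndufa2 (peripheral arm) was at 137 to 156 CPM in KO against 158 to 174 CPM in WT, Ndufs3 (core) at 125 to 135 and 142 to 156 CPM, and Ndufb5 (membrane arm) at 105 to 115 and 123 to 131 CPM. They fell by 0.21, 0.19 and 0.19, with edgeR adjusted p of 0.0471, 0.0424 and 0.0407. Ndufs3 and Ndufb5 lost their calls without any one of the 8 libraries (adjusted p from 0.0550 to 0.110 and from 0.0555 to 0.108). Ndufa2 kept its call only without KO 1, and its adjusted p was 0.0562 to 0.141 without each of the other 7. Ndufa2 shares 60 exon bases with Tmco6. Among subunits that did not pass the test, Ndufb2 had the highest estimate of complex I (0.06, SE 0.14), with KO 1 and WT 4 at 73.5 and 69.4 CPM and the other 6 libraries between 46.8 and 60.9 CPM.

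The assembly factors build complex I and are not part of the finished enzyme. Atp5sl (Dmac2) was at 76.0, 81.5, 69.6 and 77.9 CPM in KO and at 95.2, 93.0, 96.5 and 96.7 CPM in WT. Its groups did not overlap, and its level fell by 0.32 (SE 0.06, edgeR adjusted p = 0.0057), also without any 1 library. Ndufaf1, which acts early in the assembly of the membrane arm, was the only member that rose. It was at 28.0, 26.3, 26.4 and 23.8 CPM in KO and at 23.5, 22.0, 21.8 and 21.3 CPM in WT. The lowest KO value, of KO 4, lay just above the highest WT value, of WT 1. Ndufaf1 rose by 0.24 (SE 0.07, edgeR adjusted p = 0.0489), a call that held only without KO 4 (0.0231) and was lost without each of the other 7 libraries (0.0552 to 0.131). The other 6 factors, Ndufaf2 to Ndufaf7, did not pass the test. The median of the 8 factors was -0.10, and -0.06 without WT 3.

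**Figure D3:**
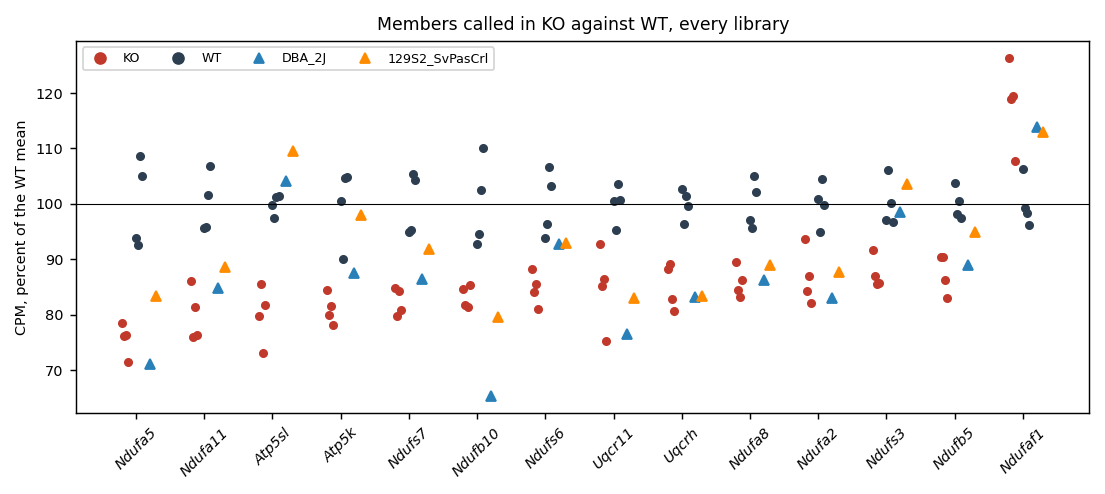
CPM of the 14 called members in every library, as a percentage of the WT mean (vertical axis). Circles are KO and WT libraries and triangles are the single DBA_2J and 129S2_SvPasCrl libraries. The 4 KO circles lie below the 4 WT circles for 13 genes and above them for Ndufaf1.

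Succinate dehydrogenase, the only enzyme shared by the respiratory chain and the tricarboxylic acid cycle, has no mitochondrially encoded subunit. Its 4 genes all had negative estimates and none passed the test. Sdhb, the iron-sulfur subunit, was at 387, 381, 388 and 364 CPM in KO and at 402, 433, 420 and 442 CPM in WT, so that the groups did not overlap (log2 fold change -0.16, SE 0.05, edgeR adjusted p = 0.0874). The membrane anchors Sdhd and Sdhc had estimates of -0.12 and -0.07. Sdha, the flavoprotein, was at 774 to 815 CPM in KO against 812 to 881 CPM in WT (-0.08, SE 0.05).

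In complex III, 2 of 9 genes fell. Uqcrh, the hinge protein, was at 208, 211, 196 and 190 CPM in KO and at 242, 227, 240 and 235 CPM in WT. The groups did not overlap, and the level fell by 0.23 (SE 0.05, edgeR adjusted p = 0.0221). Without KO 3, WT 1 or WT 3 the adjusted p was 0.0560 to 0.0667. Uqcr11, a small accessory subunit, was at 174, 160, 162 and 141 CPM in KO and at 189, 179, 194 and 189 CPM in WT. It fell by 0.24 (SE 0.07, edgeR adjusted p = 0.0473), a call that held only without KO 1 and was lost without each of the other 7 libraries (0.0626 to 0.133). The highest estimate was that of Cyc1, the heme-carrying cytochrome of the complex (0.10, SE 0.11). Cyc1 was at 838, 922, 861 and 1106 CPM in KO and at 832, 819, 762 and 1059 CPM in WT, high in KO 4 and WT 4 alike. Cycs, the mobile carrier between complexes III and IV, was at 230, 255, 247 and 238 CPM in KO and at 238, 243, 264 and 290 CPM in WT. Its groups overlapped, and it did not pass the test (-0.09, SE 0.07, edgeR adjusted p = 0.448).

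No gene of complex IV, which reduces oxygen, passed the test, and 15 of its 17 estimates were negative. The median was -0.06. Without KO 1, WT 2 or KO 4 it was -0.11, -0.10 and -0.03. Ndufa4 had the lowest estimate (-0.20, SE 0.06, edgeR adjusted p = 0.0655). It was at 380, 376, 367 and 324 CPM in KO and at 414, 422, 422 and 402 CPM in WT, with no overlap. Ndufa4l2, its paralog, had the highest estimate (0.11, SE 0.27) at 2.24 to 5.04 CPM in KO against 2.13 to 4.46 CPM in WT. Ndufa4l2 shares 34 exon bases with Shmt2, whose mean level was 315 ± 15.5 CPM in the WT libraries and 266 ± 11.1 CPM in the KO libraries (SD, n = 4), so reads in those bases could belong to either gene.

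Several complex IV subunits exist as isoforms with different tissues of expression, the heart and skeletal muscle forms among them. Levels are compared here as CPM per kb of exon length. In WT, Cox4i1 stood at 1147 ± 28.8 CPM per kb (SD, n = 4) and Cox4i2 at 0.82 ± 0.46. Cox6a1 stood at 1220 ± 27.4 and the heart and muscle form Cox6a2 at 2.11 ± 0.12. The corresponding levels were 484 ± 31.9 for Cox6b1 and 26.3 ± 4.69 for Cox6b2, a form known from testis. Cox8a stood at 1167 ± 112 and Cox8b at 4.36 ± 2.01, while Cox7a2 stood at 296 ± 3.94, Cox7a2l at 107 ± 0.87 and Cox7a1 at 23.7 ± 3.38. Cox4i1, Cox6a1, Cox6b1, Cox7a2 and Cox8a were each the highest of their family in all 10 libraries. None of the isoforms passed the test in KO, where Cox6b2 was at 24.8 ± 3.53 CPM per kb and Cox7a1 at 22.1 ± 1.81.

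**Figure D4:**
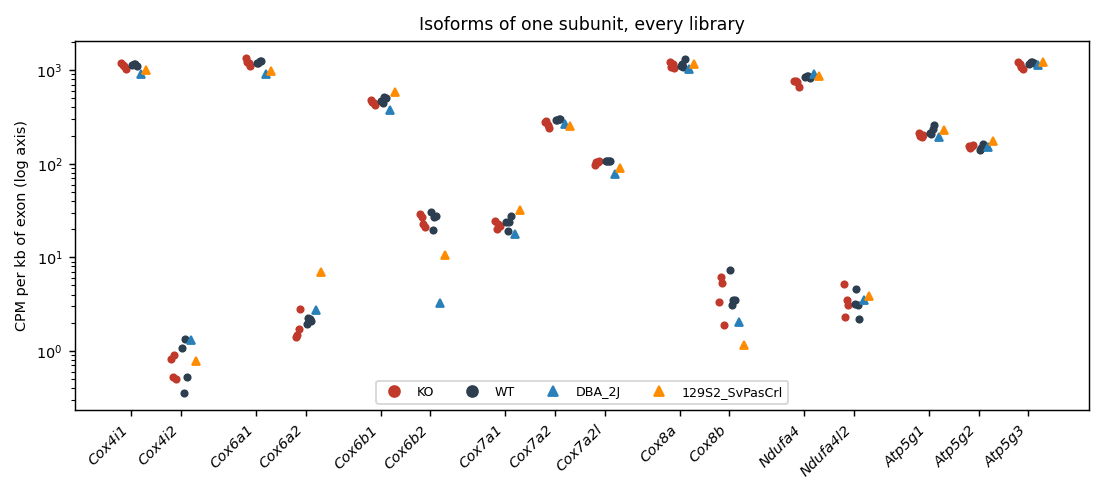
Level of isoforms of one subunit in every library as CPM per kb of exon (vertical log axis), with circles for KO and WT libraries and triangles for the single DBA_2J and 129S2_SvPasCrl libraries. KO and WT circles overlap for most isoforms, and Cox6b2 is lowest in DBA_2J at 3.22 CPM per kb.

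The highest level per kb of the list was that of Atp5b, the catalytic beta subunit of ATP synthase, at 1761 ± 75.5 CPM per kb in WT. Atp5a1, the alpha subunit, stood at 935 ± 17.7. Of the 3 genes for the c subunit of the rotor, Atp5g3 stood at 1200 ± 23.7, Atp5g1 at 229 ± 20.9 and Atp5g2 at 152 ± 9.40. In order of level per kb in WT, Cox6a1, Atp5g3, Cox8a and Cox4i1 followed Atp5b at 1147 to 1220, and each overlapped its neighbour in that order within 1 SD.

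Only 1 of the 16 genes of complex V fell. Atp5k, the e subunit, which helps ATP synthase form dimers, was at 102, 96.1, 98.1 and 94.0 CPM in KO and at 121, 108, 126 and 126 CPM in WT. Its groups did not overlap, and it fell by 0.30 (SE 0.06, edgeR adjusted p = 0.0107), also without any 1 library. The other 15 genes did not pass the test, among them Atp5a1 (-0.07, SE 0.05) and Atp5b (-0.04, SE 0.06). The highest estimate was that of Atp5s (0.14, SE 0.08), at 14.2 to 15.8 CPM in KO against 13.1 to 14.2 CPM in WT.

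The number of lower calls varied with the fit. It was 29 with DESeq2, which included the 13, and 16 with the title form as a term, likewise. Over all genes 728 of 15547 were called lower in the main fit. DESeq2 called 1055 of 15927 lower, and the fit with the title form 893 of 15547. Leaving out 1 library gave 5 to 10 calls, with 6 without KO 2, 6 without KO 3, 5 without WT 3 and 6 without WT 4. Over all genes these fits called from 381 of 15795 lower (without WT 3) to 722 of 15652 (without KO 4). Library titles come with and without a leading E, 2 KO and 2 WT of each form, and the labels do not say what the letter means. The number that begins each title, after the E where present, was never the same for a KO and a WT library. Some libraries of the same genotype shared it, and the labels do not say what it means or whether such libraries are related. A difference tied to that number cannot be told apart from genotype. Within titles with the E the member median was -0.19 and 0 members were called lower, against 51 of 15792 over all genes. Without the E the member median was -0.07 and 2 members were called lower, against 799 of 15540 over all genes. The median of complex IV was 0.009 there.

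Short genes make up much of the list. The median exon length of the members was 754 bases, against 2800 for all genes tested, and 56 members were shorter than 1000 bases. The median log2 fold change in KO was -0.16 for those 56 and -0.10 for the other 35. Over all genes it was -0.06 for the 1367 shorter than 1000 bases and -3.6e-05 for the rest. Of the short members 11 fell (19.6%), against 80 of the 1367 short genes (5.85%). Of the long members 2 fell (5.71%), Ndufa11 and Atp5sl, against 648 of 14180 long genes (4.57%). Exon length was also set against the difference from the WT mean across the 91 members. The rank correlation was 0.02, 0.23, 0.16 and 0.50 in KO 1 to KO 4, and 0.10, 0.36, -0.30 and -0.23 in WT 1 to WT 4. It was 0.60 in DBA_2J and 0.43 in 129S2_SvPasCrl. Over all genes tested it was -0.01, 0.08, 0.02 and 0.15 in KO 1 to KO 4, and 0.08, -0.05, -0.09 and 0.04 in WT 1 to WT 4. In DBA_2J it was 0.14 over all genes, and in 129S2_SvPasCrl 0.12. These are descriptions across genes of the same libraries, and the part of length in the KO difference was not tested.

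**Figure D5:**
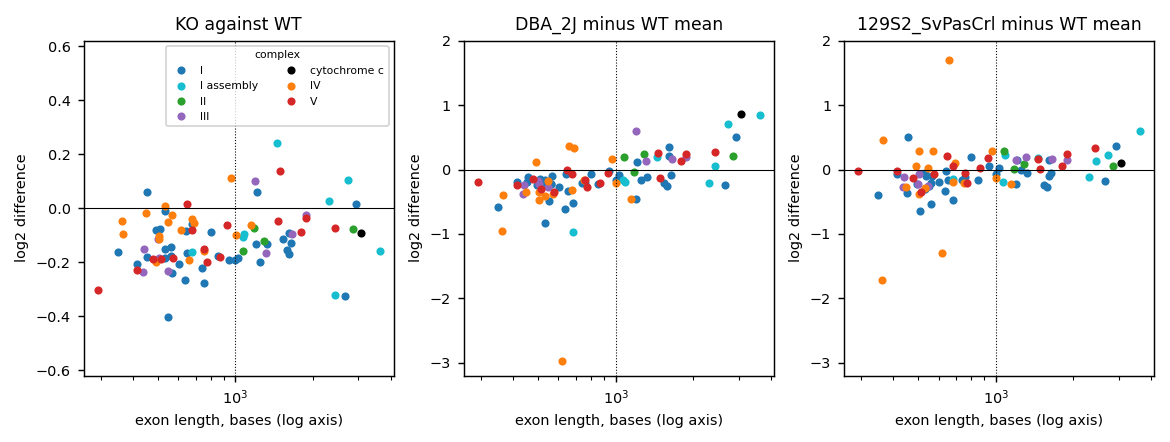
Log2 difference of each member (vertical axes) against its exon length in bases (horizontal log axes) for KO against WT, DBA_2J minus the WT mean and 129S2_SvPasCrl minus the WT mean, coloured by complex. The dotted line marks 1000 bases; in DBA_2J the short members have a median of -0.22 and the long ones of 0.13.

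Genes that work beside the chain were described by fixed lists. Among 7 complex I assembly factors outside the symbol rule, Timmdc1 rose, from 26.7 ± 2.04 to 33.8 ± 2.04 CPM (SD, n = 4; log2 fold change 0.34, edgeR adjusted p = 0.0150), and none fell. Among 7 assembly factors of complexes II and III, Sdhaf1, which helps to insert iron-sulfur clusters into Sdhb, fell by 0.34 (edgeR adjusted p = 0.0151). It was at 33.9 ± 3.12 CPM in KO against 42.8 ± 2.14 CPM in WT, and no other of the 7 was called. Among 21 assembly factors of complex IV, Cox14 alone was called and fell by 0.19 (edgeR adjusted p = 0.0496). None of 5 assembly and associated factors of complex V passed the test. Of 8 genes on other electron routes to ubiquinone, Etfb and Etfa fell by 0.35 and 0.24 (edgeR adjusted p = 0.0097 and 0.0234) and none rose. They encode the electron transfer flavoprotein, which carries electrons from fatty acid oxidation. Etfb was at 513 ± 13.4 CPM in KO against 651 ± 57.9 CPM in WT. Etfdh, the electron transfer flavoprotein dehydrogenase gene of the same list, was at 312 ± 18.3 and 288 ± 18.8 CPM. It did not pass the test (0.11, SE 0.07, edgeR adjusted p = 0.312).

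Of 14 nuclear regulators of mitochondrial genes 1 rose and none fell. The one that rose was Pprc1, a coactivator related to PGC-1alpha, from 15.4 ± 1.90 to 20.0 ± 2.09 CPM (0.37, SE 0.11, edgeR adjusted p = 0.0438). Ppargc1a, which encodes PGC-1alpha, was at 73.8 ± 10.7 CPM in KO against 74.6 ± 4.43 CPM in WT. Nrf1 was at 18.5 ± 1.49 and 19.1 ± 1.37 CPM. Neither passed the test. No gene was called among 13 genes of ubiquinone synthesis, 13 of the tricarboxylic acid cycle and 15 mitochondrial carriers and import genes, whose medians were -0.06, -0.05 and -0.02.

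The DBA_2J and 129S2_SvPasCrl libraries have no replicate, so their values are set beside the 4 WT libraries without a test. A member was counted where it lay outside the WT range and at least 0.5 from the WT mean on the log2 scale. In DBA_2J 5 members lay above and 7 below, when 13.8% and 19.3% of all genes did so. In 129S2_SvPasCrl 2 lay above and 4 below, when 11.0% and 13.1% of all genes did so. At this cut the members' shares were below those of all genes in both directions. Without the cut of 0.5, 23 members lay above and 62 below the WT range in DBA_2J, and 28 and 45 in 129S2_SvPasCrl. The share of all genes without the cut was not computed, so these 4 counts cannot be read as a trait of the members. The median member was 0.17 below the WT mean in DBA_2J and 0.06 below it in 129S2_SvPasCrl. Over all genes tested these medians were -0.024 and 0.003. By complex the DBA_2J medians were -0.20 for complex I, -0.05 for its assembly factors and 0.21 for complex II. They were -0.17 for complex III, -0.35 for complex IV and -0.14 for complex V. In 129S2_SvPasCrl the same medians were, in that order, -0.14, 0.15, 0.07, -0.07, -0.14 and 0.01.

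In DBA_2J the largest difference was that of Cox6b2. This gene was at 12.0 to 18.7 CPM in WT, 1.99 CPM in DBA_2J and 6.48 CPM in 129S2_SvPasCrl, or 2.97 and 1.29 lower on the log2 scale. Cox8b was lower in both libraries too, at 1.11 to 2.65 CPM in WT, 0.736 in DBA_2J and 0.415 in 129S2_SvPasCrl. In 129S2_SvPasCrl it was 1.72 lower on the log2 scale, the largest difference of that library. The summed level of 9 markers of white and brown adipocytes was 91.2 to 255 CPM in WT. It was 49.0 CPM in DBA_2J and 53.0 CPM in 129S2_SvPasCrl, and the part of these markers in the Cox8b values was not tested. Cox6a2 was at 1.27 to 1.45 CPM in WT and 4.56 CPM in 129S2_SvPasCrl, 1.69 higher. Beside Cox6a2, the summed level of 11 striated muscle markers was 5.51 CPM in 129S2_SvPasCrl and 3.30 to 3.88 CPM in WT. Ckm and Myh4 were at 0 and Myh6 at 2.96 CPM in 129S2_SvPasCrl. The part of the muscle genes in the Cox6a2 value was not tested.

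Cycs was at 236 to 288 CPM in WT and 463 CPM in DBA_2J, a log2 difference of 0.86, and at 273 CPM in 129S2_SvPasCrl. Cyc1 was at 755 to 1053 CPM in WT and 1298 CPM in DBA_2J. Ndufs1, the largest core subunit of complex I, was at 259 to 280 CPM in WT and 382 CPM in DBA_2J, and it shares 248 exon bases with Ino80dos. Assembly factors differed in both directions. Ndufaf4 was at 35.4 to 44.9 CPM in WT, 71.4 CPM in DBA_2J and 60.4 CPM in 129S2_SvPasCrl, and Ndufaf5 was 0.71 higher in DBA_2J. Ndufaf2 was at 16.2 to 18.2 CPM in WT and 8.76 CPM in DBA_2J. Of the membrane arm of complex I, Ndufb3 was at 104 to 114 CPM in WT and 61.2 CPM in DBA_2J, and Ndufb10 at 208 to 248 and 147 CPM. Ndufs5 was 0.64 lower in 129S2_SvPasCrl, and 484 of its 509 exon bases are shared with BC002163. BC002163 went the other way, at 81.0 to 88.4 CPM in WT and 102 CPM in 129S2_SvPasCrl. The part of the shared bases in the Ndufs5 value was not tested. Sdha, Sdhb and Sdhd lay above the WT range in DBA_2J, at 0.20 to 0.24 above the WT mean on the log2 scale. The reads of all strains were counted on the mm10 reference genes, and the part of strain sequence differences in these values was not tested.

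Whole kidney mixes many cell types, and in such samples fewer cells of a type and less RNA per cell cannot be told apart. Markers of several kidney cell types were lower in KO. Of 7 principal cell markers of the collecting duct all 7 fell, with a summed level of 437 to 481 CPM in KO against 648 to 958 CPM in WT. Of 6 intercalated cell markers 4 fell (199 to 225 CPM in KO against 287 to 328 CPM in WT). Of 4 distal convoluted tubule markers 2 fell (872 to 1128 and 1185 to 1555 CPM), and of 5 thick ascending limb markers 2 fell (2191 to 3218 and 2599 to 2994 CPM). Of 10 proximal tubule markers 2 fell, Lrp2 and Slc22a8, with summed levels of 12134 to 14667 CPM in KO against 14229 to 14790 CPM in WT. Of 6 injured tubule markers 3 rose and none fell. Havcr1 was at 29.1 to 75.4 CPM in KO against 1.34 to 2.45 CPM in WT. Sox9 was at 8.01 to 16.3 against 0.411 to 0.891 CPM, and Vcam1 at 15.3 to 28.1 against 6.27 to 6.71 CPM. Lcn2, Krt18 and Clu gave no call. The summed level of all 6 overlapped between groups (274 to 477 and 275 to 495 CPM). Clu was the highest of the 6, with means of 242 CPM in KO and 332 CPM in WT. Endothelial markers fell in 2 of 5 and macrophage markers in 1 of 4, while podocyte, fibroblast, adipocyte and striated muscle markers gave no call. The part of these cell types in the falls of respiratory chain genes was not tested.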

How the data were processed

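Per the labels' protocols, libraries were made from kidney polyA RNA and read from one end. The authors counted reads per gene with featureCounts 1.5.2 on UCSC mm10 exons, with primary alignments only, reads allowed to count for overlapping genes and no strand option, per the file headers. The submitters' processing notes name STAR, featureCounts and edgeR. The authors also deposited log2 expression values, whose making is not stated beyond that and which were used only as an alternative with limma 3.58.1. The deposited gene counts are unnormalized and were joined by gene for 10 libraries. For KO against WT, edgeR 4.0.16 (R 4.3.3) was run on 4 KO and 4 WT libraries: filterByExpr, TMM scaling, quasi-likelihood test with genotype alone, Benjamini-Hochberg adjustment over 15547 genes. All 91 members passed filterByExpr. Single strain libraries were compared as log2 CPM with a prior count of 2. CPM carry TMM scaling, except for the threshold of 1 CPM and the means given with it. Genes named are all called members, the highest and lowest of each complex, the 6 highest per kb, isoforms, the 5 highest and 5 lowest strain differences at 10 CPM or more, complex II and cytochrome c, members near the threshold, and called pathway genes. Etfdh, the shared-exon partners, and Cox8b and Cox6a2 in the strains, were named after their values were seen. Members and lists were chosen with earlier results of these data known. In simulated KO against WT data, 100% of 2-fold and 79% of 1.5-fold changes were recovered among 15547 genes, with 11 false calls. The simulation gave every gene the same dispersion and held no change as small as the members' falls. Recovery of falls of that size was thus not tested. Alternatives were RLE scaling, DESeq2 1.42.0, no filter, title form, thinning, each library left out, limma, and other sizes and prior counts for strains. Promoter sequences are from RefSeq, GRCm38.p6.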

Additional observations from a re-analysis of the deposited data

Results flagged for a closer look

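In 48 named members, the 4 values of KO and of WT were each searched for a library standing apart by Dixon's ratio, and 3 of the 96 groups had one. Chance flags about 1 in 20 groups. Atp5a1, the alpha subunit of ATP synthase, was at 2074 CPM in KO 3 and at 2181 to 2201 CPM in the other KO libraries. Cox8b was at 2.67 CPM in WT 1 and at 1.11 to 1.27 CPM in the other WT libraries. Ndufaf5, a complex I assembly factor, was at 9.25 CPM in WT 1, the library of lowest depth, and at 11.3 to 11.5 CPM in the other WT libraries. None of the 3 genes was called in KO against WT.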

How the results depend on the processing

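The 13 lower calls were 13 with RLE scaling, 9 without a filter, 16 with title form as a term, 11 after thinning, 15 with limma and 29 with DESeq2. They were 0 within titles with a leading E, 2 within titles without it, and 5 to 10 when 1 library was left out. Over all genes the main fit called 728 of 15547 lower, against 733 of 15547 with RLE scaling and 651 of 19759 without a filter. These calls were 893 of 15547 with title form and 583 of 14753 after thinning. With limma they were 713 of 13645 and with DESeq2 1055 of 15927. Within titles with the E they were 51 of 15792 and within titles without it 799 of 15540. Leaving out 1 library gave 381 to 722. The 1 higher call was 0 without a filter, within either title form and with limma, and 0 to 1 when 1 library was left out. Over all genes the higher calls were 982 in the main fit, 985 without a filter and 958 with limma. They were 92 within titles with the E, 924 within titles without it, and 610 to 916 without 1 library. The member median of -0.12 was -0.19 within titles with the E, -0.069 within titles without it, and -0.15 to -0.10 with 1 library left out. Within titles with the E the medians were -0.17 for complex I assembly, -0.23 for complex III, -0.15 for complex IV and -0.21 for complex V. Within titles without it they were -0.094 for complex I, -0.022 for complex I assembly, -0.069 for complex III, 0.0091 for complex IV (a change of sign) and -0.069 for complex V. With 1 library left out the ranges were -0.12 to -0.061 for complex I assembly, -0.17 to -0.11 for complex III, -0.11 to -0.029 for complex IV and -0.15 to -0.091 for complex V. At a difference of 1 or more, DBA_2J had 0 members above and 1 below the WT range, and 129S2_SvPasCrl 1 above and 2 below. The settings with fewer libraries tested 2 against 2 or 3 against 4, and the cause of the other changes was not tested. Of 768 values of the 48 named members under the alternatives, 86 lost and 5 gained a call. The sign changed in 30, over 17 members, and 12 of the 30 were within titles without the E; none was of the 14 called members. No paired analysis was possible because the replicate numbers were given in accession order and pair no libraries.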
